A study of Solanum phureja with 20 samples.

Results

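The data described here are 4 two-colour arrays of growing root tips of potato (Solanum phureja), chosen by their titles from 20 arrays, 8 of them of root. Each of the 4 set RNA of a diploid line, 2xR5 or 2xR3, against RNA of the monoploid, 1x, in replicate 4 or replicate 5. All lines of the study descend from 1 monoploid plant with 12 chromosomes, and chromosome doubling gave both diploids and a tetraploid, 4x. The genotype was the only treatment the labels name, and every line carries the same starting genome, so the comparison asks what the first doubling did to transcript levels in the root tip. Root tips were taken at day 7 after planting. The growth chamber gave 15 h of light (23.5 °C), then 9 h of dark (15.5 °C), with relative humidity held at 50%. Root RNA was amplified before labelling. The labels do not say how many plants gave root RNA, and each ploidy step is represented by the lines named here alone, so a line's own history and its ploidy cannot be told apart for 1x.

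Chromosome doubling of one plant multiplies every gene at once and leaves the sequences as they were, and cells of doubled plants are usually larger. A growing root tip holds the meristem, the cap and the zone where cells elongate, and its growth depends on auxin, on the supply of sugar and oxygen and on water uptake through aquaporins. A two-colour array gives the level of a transcript in one RNA relative to the other and relative to all other spots, so a general change in the amount of RNA per cell is not seen.

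Each value below is a log2 ratio of diploid over 1x, so 1 stands for a doubling and -1 for a halving of the relative level. The labels do not state the direction of the deposited ratio. Cy5 over Cy3 is taken here as the likely one, being how limma writes a log ratio, and the opposite reading would turn every sign. Each diploid line met 1x once in each dye orientation, and each replicate held 1 array of either orientation, so a dye effect of a single gene cancels in the mean of the diploids. Between 17166 and 17829 of the 32448 spots had a value on these 4 arrays. A printed sequence, called a clone here, is a pair of spots, and 8245 of the 10050 clones with any root value had one on all 8 root arrays and were tested. Among them were 579 of the 815 clones that carry exactly 1 gene symbol, for 359 genes. Only ratios were used here, so marker levels could not be read and the labelled tissue could not be checked against them.

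A large share of root tip transcripts differed between the diploids and 1x, most of them by little, and the share depended on array scaling. In the mean of both diploids 3735 of 8245 clones (45.3%) passed the test against 1x (limma, Benjamini-Hochberg adjusted p under 0.05), with 1721 higher (20.9%) and 2014 lower (24.4%). Higher clones were thus 46.1% of those that passed, and 63.5% of the 712 that passed when every root array was scaled to the same spread. Without replicate 4, 1063 higher and 552 lower clones passed. One sign on all 4 arrays was seen in 5415 of all 8245 clones. The median rise was 0.45 and the median fall was -0.32. Of 47 calls of named genes given below, 20 held with the arrays so scaled, among them ADH1, XIP1-1-BETA, MIP2, SHKA and NAD(P)H:QR, while the other 27 kept their direction and did not pass. The held values were smaller, at -1.50 for ADH1, 1.16 for XIP1-1-BETA, 0.62 for MIP2, 0.58 for SHKA, 2.52 for LOC102577927 and 1.67 for LOC102586657. In bulk tissue, fewer cells of a type and less RNA per cell cannot be told apart, and this holds for every result below.

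Large changes were mostly rises. At 2-fold or more, 222 clones (2.69%) were higher in the diploids and 16 (0.194%) were lower. At a log2 change of 2 or more the counts were 63 higher and 4 lower, and at 3 or more they were 27 higher and 0 lower. The same lean showed on each array before any fit. Clones at 1 or above, against clones at -1 or below, numbered 242 and 46 for 2xR5 in replicate 4, 280 and 12 for 2xR5 in replicate 5, 257 and 44 for 2xR3 in replicate 4, and 286 and 19 for 2xR3 in replicate 5. Large rises were thus the more frequent on all 4 arrays, whichever dye marked the diploid. The ratios had been rounded to 2 decimals before their log2 was taken, so on the arrays with 1x in Cy5 a strong rise is a small ratio and is read coarsely. Near a ratio of 0.05 the next step is 0.26 away on the log2 scale.

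**Figure D1:**
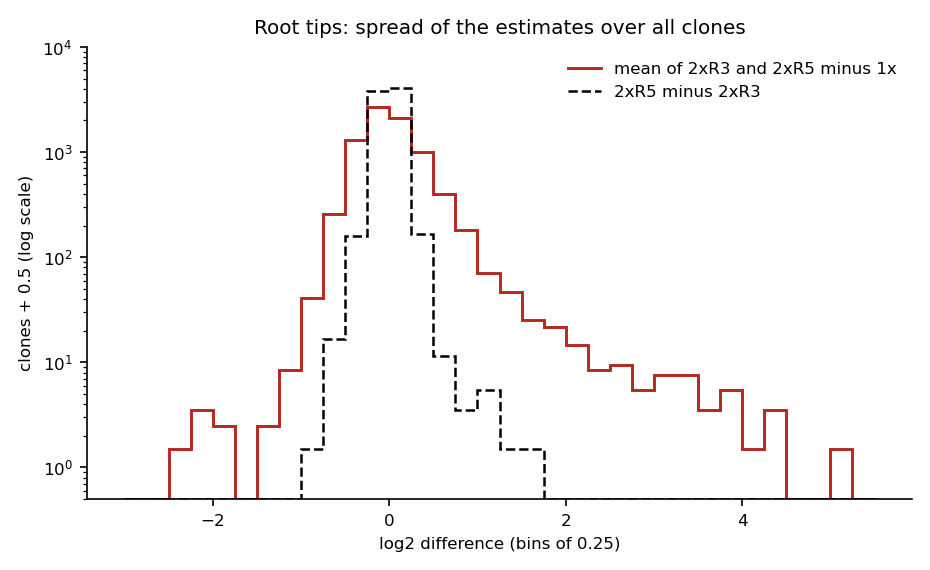
Histogram of the estimates over the 8245 clones of root tips. The x axis is the log2 difference in bins of 0.25 and the y axis the number of clones plus 0.5 on a log scale; the solid line is the mean of 2xR3 and 2xR5 minus 1x and the dashed line is 2xR5 minus 2xR3. The solid line has a long upper tail, with 222 passed clones at 1 or more and 16 at -1 or less, while the dashed line has 7 clones at a size of 1 or more.

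Each diploid line was also tested alone against 1x, with fewer passed clones than for the mean of both. Against 1x, 2847 of 8245 clones (34.5%) passed in 2xR5 and 3112 (37.7%) in 2xR3. In 2xR5 1356 were higher (16.4%) and 1491 lower (18.1%), and in 2xR3 1459 were higher (17.7%) and 1653 lower (20.0%). With scaled arrays the split was 141 higher and 24 lower in 2xR5 and 195 higher and 67 lower in 2xR3. Without replicate 4 it was 827 higher and 280 lower in 2xR5 and 911 higher and 362 lower in 2xR3. At a change of 2-fold or more, 2xR5 had 218 rises (2.64%) and 14 falls (0.170%), and 2xR3 had 230 rises (2.79%) and 23 falls (0.279%). Both lines were measured against the same 1x RNA, so their values are given side by side and not compared as independent results.

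The diploid lines never shared a root array and were compared through 1x and 4x, and no clone passed. In 2xR5 minus 2xR3, 0 of 8245 clones (0.00%) passed at an adjusted p under 0.05 in limma, and 301 (3.65%) had an unadjusted p under 0.05. The standard deviation of the estimates over clones was 0.12 for 2xR5 minus 2xR3, against 0.45 for the mean of the diploids minus 1x. A difference of 1 or more in size was reached by 7 clones between the diploids. The median standard error of a clone was 0.081 for the difference between the lines. That error is taken from all 4 lines, so it also holds differences between the replicates in 1x. Even a difference of 1.54, for the clone with probe number 158882, did not pass (limma, adjusted p = 0.998). The absence of passed clones therefore does not show that the lines were alike. LOC102577613, with METK1 and CYCD3.3 among the 3 named genes with the smallest p, had -0.12 and 0.04 for 2xR5 over 1x in replicates 4 and 5, against 0.39 and 0.30 for 2xR3. Its lines did not overlap and differed by -0.33, with an unadjusted p of 0.00420 that did not pass after adjustment. Among the 222 clones at least 2-fold higher than in 1x, 2xR5 was above 2xR3 in 111, and 4 had the lines 2-fold or more apart.

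Across clones, the mean of the diploids minus 1x in replicate 5 correlated with that in replicate 4 at r = 0.85, while 2xR5 minus 2xR3 gave r = -0.00. The points are clones printed on the same arrays and are no independent replicates. The 222 clones with a rise of 2-fold or more were chosen on the mean of these arrays, and 142 of them were at 1 or above on each array.

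**Figure D2:**
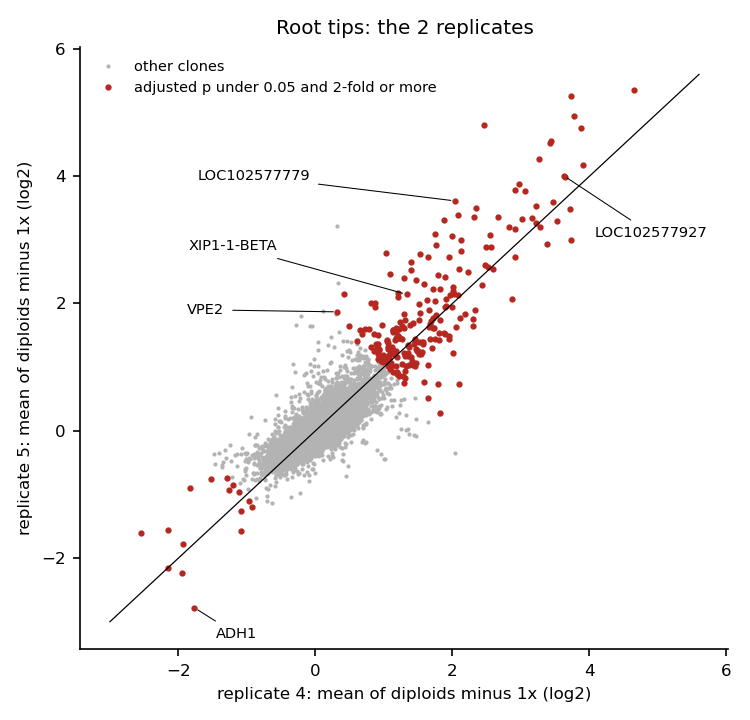
Mean of the diploids minus 1x (log2) for each clone in replicate 5 (y axis) against replicate 4 (x axis); red points passed limma at an adjusted p under 0.05 and a change of 2-fold or more, grey points are all other clones, and the line marks equal values. Most red points lie at the upper right near the line, ADH1 lies at the lower left, and VPE2 lies far above the line with 0.32 in replicate 4 and 1.87 in replicate 5.

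ADH1 had the largest fall of all 8245 clones. It encodes alcohol dehydrogenase, the last enzyme of ethanol fermentation, which regenerates NAD+ when oxygen is short and is a classic gene of flooded roots. Its log2 ratios were -1.28 and -2.05 for 2xR5 over 1x in replicates 4 and 5, and -2.26 and -3.50 for 2xR3 over 1x. All 4 arrays placed the diploids below 1x, with 2xR3 the lower line in both replicates. The mean of the diploids was -2.27 ± 0.23 (SE of the limma fit) relative to 1x, a 4.84-fold lower level (limma, adjusted p = 0.00161). By replicate this mean was -1.77 in replicate 4 and -2.78 in replicate 5. Each ± given for root tips is the SE of that fit, which pools the spread of all 4 lines. It is not the spread between the replicates of the one comparison, which can be wider. The lines differed by 0.87 (2xR5 minus 2xR3, unadjusted p = 0.0158), which did not pass after adjustment. In 4x the estimate was -2.43 relative to the diploids (limma, adjusted p = 0.113), a comparison that shares the diploid RNA with the one above. The other fermentation gene, LDH-2 for lactate dehydrogenase, had -0.07 and did not pass. Of the 2 clones on this list 1 fell and 0 rose, where 24.4% of all clones fell and 20.9% rose.

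Genes of glycolysis stood near the level of 1x. GAPDH, the glycolytic glyceraldehyde phosphate dehydrogenase, has 4 clones here with estimates between -0.25 and 0.04. One of them passed, at -0.25 ± 0.06 (limma, adjusted p = 0.0173), and its call was lost without either replicate, at -0.31 in replicate 4 alone and -0.19 in replicate 5 alone. PK, pyruvate kinase, had -0.21 and did not pass (limma, adjusted p = 0.0856). It had -0.12 in replicate 4 and -0.31 in replicate 5, each a value from 1 replicate with no spread of its own. Of the 5 clones of this list 1 fell and 0 rose, where 24.4% of all clones fell and 20.9% rose. Their median was -0.11, against a median of -0.02 over all clones.

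**Figure D3:**
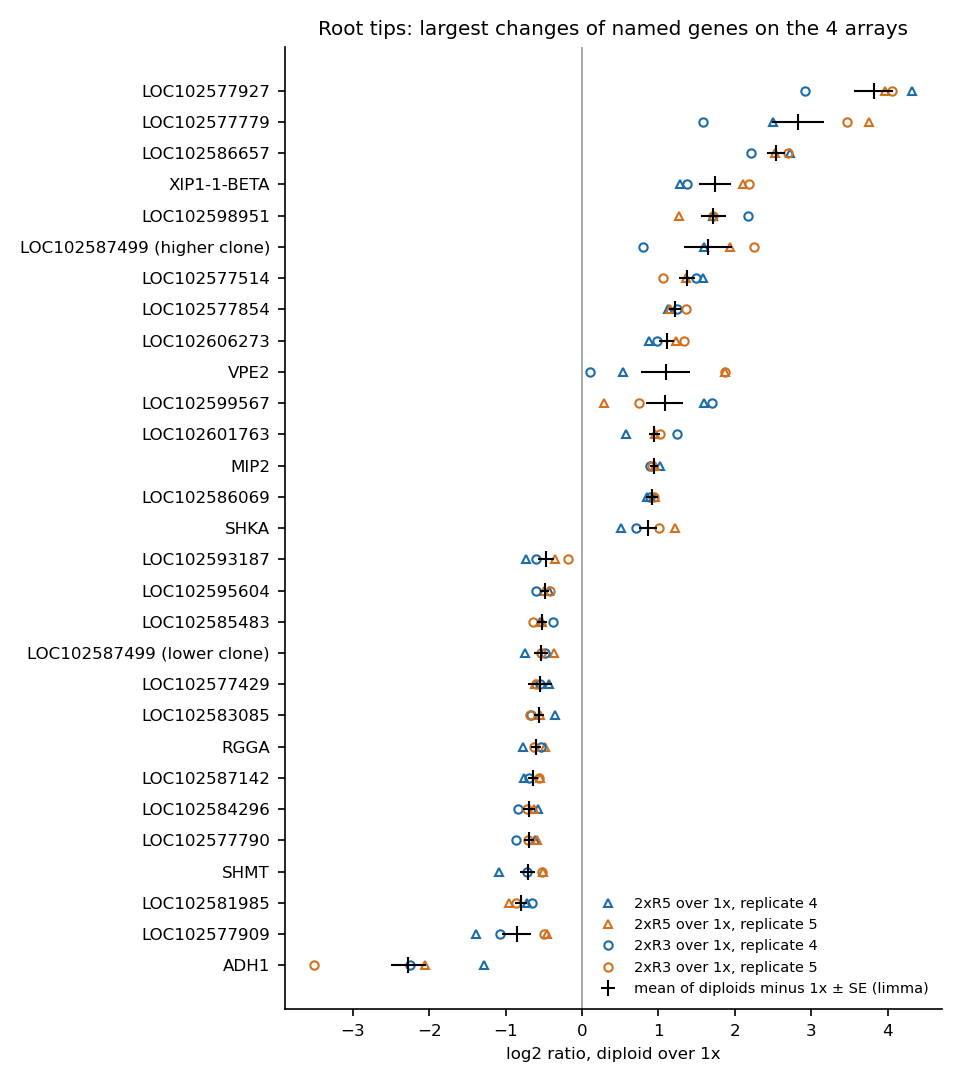
Log2 ratios of diploid over 1x on each of the 4 arrays (x axis) for the named genes with the largest changes (y axis, 1 clone a gene and 2 clones of LOC102587499). Triangles are 2xR5, circles are 2xR3, blue is replicate 4, orange is replicate 5, and black crosses are the limma estimate with its SE. LOC102577927 lies between 2.92 and 4.32 on the 4 arrays, and ADH1 between -3.50 and -1.28.

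Both genes of the aquaporin family that were measured had a clone that rose. These proteins form pores for water and small solutes in plant membranes. XIP1-1-BETA, of the group called X intrinsic proteins, had 1.29 and 2.11 for 2xR5 over 1x in replicates 4 and 5 and 1.38 and 2.18 for 2xR3. Replicate 5 gave the higher ratio in both lines, and the lines lay close together in each replicate. Its mean rise was 1.74 ± 0.21 (SE of the limma fit), or 3.34-fold (limma, adjusted p = 0.00266), with 1.33 in replicate 4 and 2.14 in replicate 5.

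MIP2, a major intrinsic protein, had nearly even ratios, with 1.01 and 0.95 for 2xR5 in replicates 4 and 5 and 0.88 and 0.92 for 2xR3. All 4 lay between 0.88 and 1.01. The mean rise was 0.94 ± 0.05, or 1.92-fold (limma, adjusted p = 0.000368). A second clone of MIP2 had 0.13 and did not pass (limma, adjusted p = 0.295), and the sources used here do not say which part of the transcript each clone holds. Of the 3 clones of the family 2 rose and 0 fell, with a median of 0.94, where 20.9% of all clones rose and 24.4% fell.

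Amino acid metabolism held changes in both directions. SHKA encodes the enzyme that starts the shikimate pathway, the route to aromatic amino acids and phenolic compounds. It had 0.52 and 1.22 for 2xR5 over 1x in replicates 4 and 5 and 0.70 and 1.00 for 2xR3, a rise on every array. Its mean was 0.86 ± 0.12, or 1.82-fold (limma, adjusted p = 0.00371). SHMT, serine hydroxymethyltransferase, which passes one-carbon units between serine and glycine, had -1.09 and -0.51 for 2xR5 and -0.72 and -0.53 for 2xR3. Its mean fell by 0.71 on the log2 scale (SE 0.10, limma, adjusted p = 0.00368). With the arrays scaled to a common spread the SHMT fall was -0.46 and did not pass.

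METK1 makes S-adenosylmethionine, the methyl donor of the cell and the precursor of ethylene and polyamines. Its 9 clones had estimates between 0.11 and 0.38, and 2 of them passed. The clone with the smallest p had 0.18 and 0.06 for 2xR5 in replicates 4 and 5, against 0.55 and 0.69 for 2xR3. The 2 lines did not overlap, and in all 9 clones 2xR5 lay below 2xR3, by 0.44 to 0.51. The unadjusted p of that difference was 0.00349 for this clone and between 0.00349 and 0.0113 over the 9 clones, and none passed after adjustment over all clones (limma, adjusted p = 0.998). The 9 clones report one gene in the same RNA and are not replicates. The rise of the mean, 0.37 for this clone, was lost with scaled arrays and when the 9 clones were averaged. It was also lost without either replicate, in fits that took their spread from leaf. The value itself was much the same, at 0.36 in replicate 4 and 0.37 in replicate 5.

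Of the remaining genes of this list, BCAT2, a branched-chain aminotransferase, had a small rise of 0.18 ± 0.06 (limma, adjusted p = 0.0441) that was lost without either replicate, with 0.20 in replicate 4 and 0.15 in replicate 5. BCAT1 had -0.08 and ARD, an enzyme that recycles methionine, had 0.12, and neither passed. Of the 14 clones of the list 4 rose, 1 fell and 9 did not pass, with a median of 0.23. Over all clones 20.9% rose and 24.4% fell, and 9 of these 14 clones are of METK1 alone.

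Auxin and cell cycle genes were mostly higher in the diploids. IAA2 and IAA3 encode Aux/IAA proteins, which repress auxin response and are themselves induced by auxin. IAA2 had 0.85 and 0.42 for 2xR5 over 1x in replicates 4 and 5 and 0.77 and 0.89 for 2xR3, with a mean rise of 0.73 ± 0.11 (limma, adjusted p = 0.00475). IAA3 had 0.49 and 0.40 for 2xR5 and 0.56 and 0.54 for 2xR3, with a mean of 0.50 ± 0.07 (limma, adjusted p = 0.00326). Both were higher than in 1x on all 4 arrays.

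CYCD3.3 and CYCD3.2 encode D-type cyclins, which drive entry into the cell cycle. CYCD3.3 had 0.71 and 0.42 for 2xR5 in replicates 4 and 5, against 0.21 and 0.18 for 2xR3. Every array was above 0, and both 2xR5 values were above both 2xR3 values. The mean rise was 0.38 ± 0.08 (limma, adjusted p = 0.0128), and 2xR5 lay 0.42 above 2xR3 with an unadjusted p of 0.00389 that did not pass after adjustment. CYCD3.2 had a mean of 0.30 ± 0.10 (limma, adjusted p = 0.0470). Without replicate 4 the calls of both cyclins were lost, at 0.30 for CYCD3.3 and 0.17 for CYCD3.2.

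CDPK1, a calcium-dependent protein kinase, had 0.50 and 0.48 for 2xR5 in replicates 4 and 5 and 0.42 and 0.59 for 2xR3, a mean rise of 0.50 ± 0.06 (limma, adjusted p = 0.00296). BEL5, a homeodomain protein whose mobile transcript is tied to tuber formation in potato, was the one gene of the list that fell, at -0.29 ± 0.06 (limma, adjusted p = 0.0148). Its call was lost without replicate 4, at -0.20. ERS, an ethylene receptor, had -0.05 and did not pass. Of the 7 clones of this list, 1 a gene, 5 rose and 1 fell, against 20.9% and 24.4% of all clones. With the arrays scaled to a common spread all 6 kept their direction, at 0.19 to 0.47 for the rises and -0.19 for BEL5, and none passed.

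**Figure D4:**
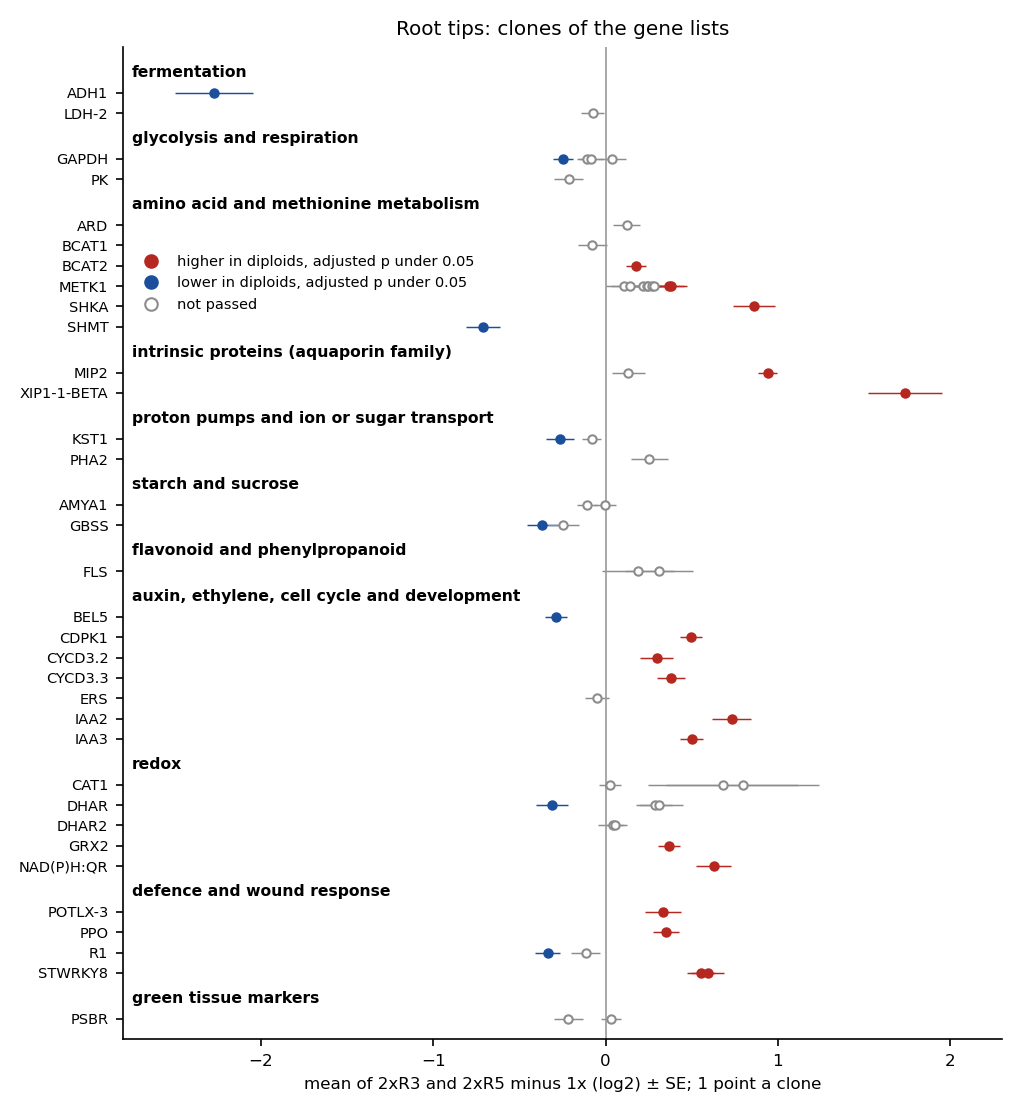
Mean of 2xR3 and 2xR5 minus 1x (log2, x axis) with its SE for each clone of the listed genes, grouped by list (y axis, 1 point a clone). Red points passed higher and blue points passed lower in limma at an adjusted p under 0.05, and open points did not pass. ADH1 at -2.27 and XIP1-1-BETA at 1.74 lie farthest from 0, and most other listed genes lie between -0.5 and 1.

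Redox genes were mixed. NAD(P)H:QR, a quinone reductase, had 0.51 and 0.97 for 2xR5 over 1x in replicates 4 and 5 and 0.33 and 0.69 for 2xR3. It was higher than in 1x on each array, with the higher ratio in replicate 5 for both lines. Its mean was 0.63 ± 0.10 (limma, adjusted p = 0.00535), and without replicate 5 the call was lost at 0.42. GRX2, a glutaredoxin, rose by 0.37 ± 0.06 (limma, adjusted p = 0.00666), and its call was lost without replicate 4, at 0.30.

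CAT1, a catalase that removes hydrogen peroxide, had the largest standard errors of all listed genes. One clone had 0.53 and 2.37 for 2xR5 in replicates 4 and 5, against -0.96 and 1.24 for 2xR3, and a second clone had 0.44 and 2.15 for 2xR5, against -1.01 and 1.15 for 2xR3. Both clones were thus higher in replicate 5 than in replicate 4, and higher in 2xR5 than in 2xR3 within each replicate, with both signs among the arrays. Their means were 0.79 ± 0.44 and 0.68 ± 0.44 and did not pass (limma, adjusted p = 0.186 and 0.241). Without replicate 4 the first of them had 1.80, a value from 1 replicate with no spread of its own. The other CAT1 clone had 0.03 and did not pass. DHAR and DHAR2 recycle ascorbate. One DHAR clone fell, at -0.31 ± 0.09 (limma, adjusted p = 0.0347), and 2 others had 0.31 and 0.29 and did not pass, so the clones of DHAR disagree and their average was 0.10. The call of the lower clone was lost without replicate 4, at -0.19. DHAR2 had 0.05 and 0.04 in its 2 clones and did not pass. Of the 10 clones of the list 2 rose, 1 fell and 7 did not pass, against 45.3% of all clones that passed.

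Among genes tied to defence and wounding 4 of 6 clones rose and 1 fell, against 20.9% and 24.4% of all clones. With scaled arrays PPO and POTLX-3 had 0.22 each and the first STWRKY8 clone 0.36, and none of these passed. STWRKY8, a transcription factor of the WRKY family, had 2 clones that rose, at 0.55 ± 0.08 and 0.59 ± 0.09 (limma, adjusted p = 0.00442 and 0.00525). The first had 0.50 and 0.64 for 2xR5 in replicates 4 and 5 and 0.68 and 0.40 for 2xR3. All 4 arrays were above 0. PPO, a polyphenol oxidase that browns wounded tissue, rose by 0.35 ± 0.08 (limma, adjusted p = 0.0141), a call lost without replicate 4, at 0.29.

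POTLX-3, a lipoxygenase, had -0.03 and 0.51 for 2xR5 and 0.70 and 0.16 for 2xR3 in replicates 4 and 5, so 1 array was slightly below 0. Its mean of 0.33 ± 0.10 passed (limma, adjusted p = 0.0435), and the call was lost without either replicate, at 0.34 in replicate 4 and 0.33 in replicate 5. One clone of R1 fell, at -0.34 ± 0.07 (limma, adjusted p = 0.0139), and another had -0.12 and did not pass. The R1 fall was lost without replicate 4, at -0.23. The symbol R1 is used for more than one potato protein, and the annotation does not say which is meant.

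Starch, transport and flavonoid genes changed little. GBSS, the granule-bound enzyme that makes amylose, had 2 clones, one of which fell by 0.37 on the log2 scale (SE 0.09, limma, adjusted p = 0.0212) while the other had -0.24 and did not pass. The GBSS call was lost without either replicate, at -0.50 in replicate 4 and -0.24 in replicate 5. AMYA1, an alpha-amylase, had -0.11 and -0.00 and did not pass. KST1, an inward potassium channel, had a clone at -0.26 ± 0.08 that passed (limma, adjusted p = 0.0410) and one at -0.08 that did not. The KST1 call rested on replicate 5, with -0.41 there and -0.11 in replicate 4, and was lost without replicate 5.

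PHA2, a proton pump of the plasma membrane, had 0.25, and FLS, flavonol synthase, had 0.31 and 0.19 in its 2 clones, and none of these passed. Without replicate 5 the PHA2 clone had 0.35 and the first FLS clone 0.43, each from 1 replicate. Of 4 starch clones 1 fell and 0 rose, of 3 transport clones 1 fell and 0 rose, and of 2 flavonoid clones 0 passed, where 20.9% of all clones rose and 24.4% fell. PSBR, a photosystem II protein taken as a marker of green tissue, had -0.22 and 0.03 in its 2 clones, and neither passed (limma, adjusted p = 0.0793 and 0.682).

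Beyond these lists the largest changes of named genes fell on symbols for which the annotation gives a number and no description. LOC102577927 rose most, with 4.32 and 3.96 for 2xR5 over 1x in replicates 4 and 5 and 2.92 and 4.06 for 2xR3. Its lowest array was thus still above 2.9. The mean rise was 3.82 ± 0.26, or 14.1-fold (limma, adjusted p = 0.000566). LOC102577779 had 2.49 and 3.75 for 2xR5 and 1.58 and 3.47 for 2xR3, higher in replicate 5 for both lines. Its mean was 2.82 ± 0.34, or 7.08-fold (limma, adjusted p = 0.00257), and its second clone had 2.53. LOC102586657 had 2.73 and 2.53 for 2xR5 and 2.21 and 2.70 for 2xR3, the most even of the 3, with a mean of 2.54 ± 0.12 or 5.82-fold (limma, adjusted p = 0.000201).

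VPE2 encodes a vacuolar processing enzyme, a protease that matures vacuolar proteins and takes part in cell death. It had 0.53 and 1.87 for 2xR5 in replicates 4 and 5 and 0.11 and 1.87 for 2xR3. Replicate 5 thus carried most of the rise in both lines. The mean was 1.10 ± 0.32, or 2.14-fold (limma, adjusted p = 0.0359), and without replicate 5 the value was 0.32 and did not pass.

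The other rises in the 12 named by size were 1.72 for LOC102598951, 1.65 for LOC102587499, 1.37 for LOC102577514, 1.22 for LOC102577854, 1.11 for LOC102606273, 1.08 for LOC102599567, 0.95 for LOC102601763 and 0.91 for LOC102586069. LOC102599567 differed most between replicates, with 0.51 in replicate 5 and 1.65 in replicate 4. All 4 clones of LOC102586069 rose, between 0.72 and 0.91.

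Falls of named genes outside the lists were smaller. The 12 named by size lay between -0.85 for LOC102577909 and -0.47 for LOC102593187. LOC102581985 had -0.73 and -0.96 for 2xR5 in replicates 4 and 5 and -0.65 and -0.87 for 2xR3, and all 3 of its clones fell, between -0.80 and -0.58. LOC102577909 had one clone of 4 that fell, at -0.47 in replicate 5 and -1.23 in replicate 4, while its other clones had -0.36, 0.00 and 0.40 and did not pass.

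RGGA, a protein with RGG repeats that binds RNA, had -0.78 and -0.48 for 2xR5 and -0.53 and -0.64 for 2xR3. Its mean was -0.61 ± 0.06 (limma, adjusted p = 0.00186), and 2 of its 3 other clones fell as well, at -0.26 each. The remaining falls were -0.70 for LOC102577790, -0.69 for LOC102584296, -0.64 for LOC102587142, -0.57 for LOC102583085, -0.55 for LOC102577429, -0.53 for a second clone of LOC102587499, -0.52 for LOC102585483 and -0.49 for LOC102595604. Of the 3 clones of LOC102577790, 2 fell and the other had -0.14 and did not pass. Calls of LOC102583085 and LOC102595604 were lost without either replicate, with -0.51 and -0.52 in replicate 4 and -0.62 and -0.47 in replicate 5. That of LOC102593187 was lost without replicate 4, at -0.27.

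Clones of one symbol did not always move together. LOC102587499 has 10 clones, of which 4 rose, between 1.41 and 1.65, 2 fell, at -0.29 and -0.53, and 4 did not pass. For LOC102593187 one clone fell and one rose, at -0.47 and 0.75. Of 135 genes with more than 1 clone, 44 had 2 or more clones that passed, and 3 had passed clones of opposite sign. For such symbols a change is that of a clone and not of the gene.

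Most large changes fell on clones without a symbol, as did most clones tested. Among the 222 rises of 2-fold or more 15 clones (6.76%) had one, against 7.02% of all clones tested, and among the 16 falls 1 clone had one, ADH1. The largest rise of all was the clone with probe number 158882, with 5.64 and 6.06 for 2xR5 in replicates 4 and 5, against 3.67 and 4.64 for 2xR3, and a 32.1-fold higher mean (limma, adjusted p = 0.000343). It was higher in 2xR5 in both replicates, by 1.54 in the fit, which did not pass after adjustment (limma, adjusted p = 0.998). Probe 140436 rose by 4.50 ± 0.35, or 22.6-fold (limma, adjusted p = 0.000828). Each of these probes had 5.64 on an array with 1x in Cy5. Near a ratio of 0.02 the next step there is 0.58 away on the log2 scale. The largest falls without a symbol were -2.15 ± 0.07 for probe 144901 and -2.09 ± 0.08 for probe 145294 (limma, adjusted p = 0.000139 for both). Probe 144901 lay below -2 on all 4 arrays, down to -2.32.

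The fall of ADH1 and the rise of LOC102586657 in root tips had no passed change beside them in leaf. LOC102577927 and LOC102577779 rose in both tissues, and more in root tips. These 3 rises were picked for their size in root tips, so a larger value there is partly fixed by the choice. Leaf arrays of the same lines gave an estimate for 5121 of the clones, and the difference of the first doubling, root tips minus leaf, passed for 1221 of them (23.8%), with 622 higher (12.1%) and 599 lower (11.7%). This split was 156 higher and 70 lower with scaled arrays, and 310 higher and 111 lower without replicate 4. In root tips 3735 of 8245 clones passed, against 994 of 6001 (16.6%) in leaf. Changes of at least 2-fold numbered 222 rises and 16 falls in root tips, against 5 rises (0.0833%) and 5 falls (0.0833%) in leaf. These counts come from unlike sets of clones. A leaf estimate existed for 62.1% of the tested root clones, but for 40.5% of the 222 rises. Root RNA was amplified and the protocol for leaf differed in plant age, so tissue, age and RNA preparation cannot be told apart here. Levels were not compared between tissues.

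ADH1 had -2.27 in root tips, against 0.18 ± 0.11 in leaf, a difference of -2.45 ± 0.25 (limma, adjusted p = 1.46e-05). LOC102586657 had 2.54 in root tips and -0.12 in leaf, a difference of 2.66 ± 0.14 (limma, adjusted p = 3.31e-08). LOC102577927 had 3.82 in root tips and 0.59 in leaf, and LOC102577779 had 2.82 in root tips and 0.53 in leaf. These 2 passed as rises in both tissues, and the rise was larger in root tips. The difference of LOC102577779, 2.29, was 1.50 without replicate 5. LOC102586657 and ADH1 did not pass in leaf (limma, adjusted p = 0.316 and 0.301).

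CYCD3.3 moved in opposite directions, with 0.38 ± 0.08 in root tips and -0.92 ± 0.09 in leaf, both of which passed. Its difference was 1.30 ± 0.13 (limma, adjusted p = 1.46e-05). GBSS was lower in root tip diploids, at -0.37, and higher in leaf diploids, at 0.40, with a difference of -0.76 ± 0.17 (limma, adjusted p = 0.00650). The GBSS difference was lost without replicate 1 and without replicate 4, at -0.58 and -0.63. R1 likewise had -0.34 in root tips and 0.31 in leaf, a difference of -0.65 ± 0.13 (limma, adjusted p = 0.00392). The other clone of each passed in neither tissue. In root tips and leaf it had -0.24 and 0.26 for GBSS and -0.12 and 0.27 for R1. The difference of these other clones was -0.50 for GBSS, which passed, and -0.39 for R1, which did not (limma, adjusted p = 0.0234 and 0.0610). MIP2 rose in root tips by 0.94 and had 0.13 in leaf, where it did not pass, and its difference was 0.81 ± 0.09 (limma, adjusted p = 2.81e-05). XIP1-1-BETA had no leaf estimate.

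**Figure D5:**
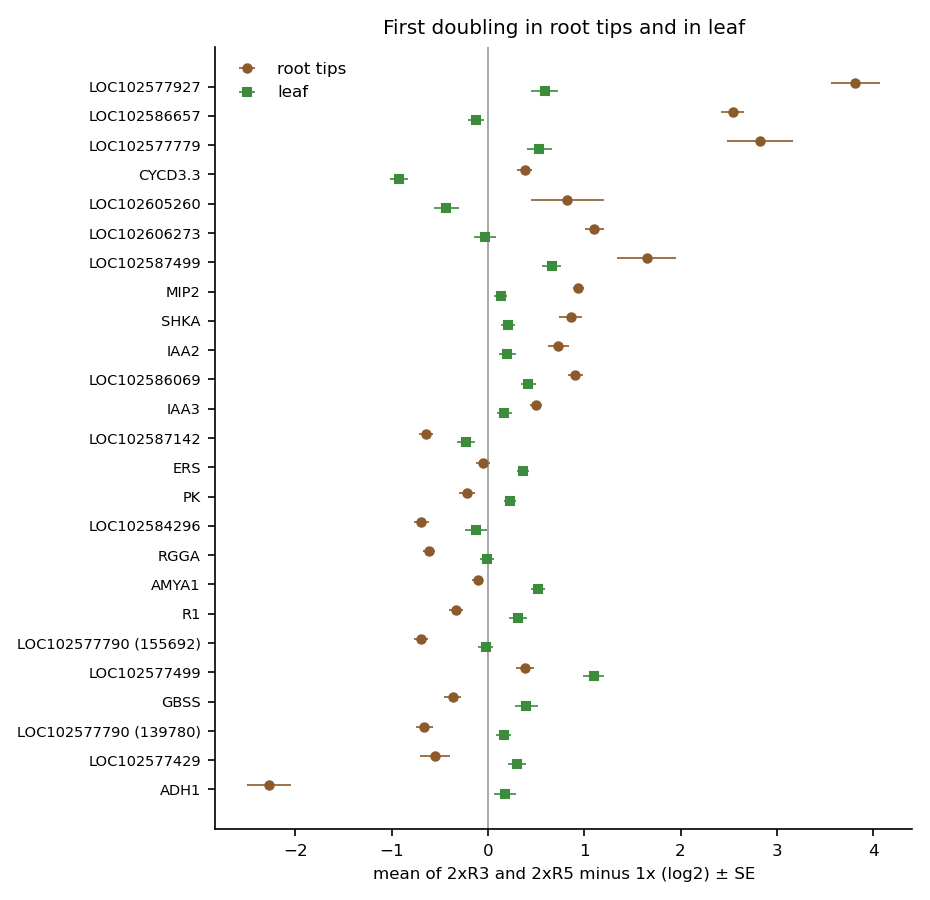
Mean of the diploids minus 1x (log2, x axis) with its SE in root tips (brown circles) and in leaf (green squares) for the named genes whose change differed between the tissues in limma at an adjusted p under 0.05 (y axis). LOC102577927 lies at 3.82 in root tips and 0.59 in leaf, ADH1 at -2.27 in root tips and 0.18 in leaf, and CYCD3.3 at 0.38 in root tips and -0.92 in leaf.

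Other genes passed for a difference without a large root tip change. AMYA1 had -0.11 in root tips and 0.52 in leaf, ERS had -0.05 in root tips and 0.36 in leaf, and PK had -0.21 in root tips and 0.23 in leaf, where all 3 rose. STWRKY8 rose in both tissues, with 0.55 in root tips and 0.52 in leaf, and its difference of 0.03 ± 0.15 did not pass (limma, adjusted p = 0.904). VPE2 rose in both tissues, by 1.10 in root tips and 0.57 in leaf, and the difference did not pass (limma, adjusted p = 0.243). Of the 222 clones with large root tip rises, which were chosen on their root values, 90 had a leaf estimate, with a leaf median of 0.11. Of these, 25 passed as higher and 2 as lower in leaf. Over all clones tested in leaf, 994 of 6001 (16.6%) passed, counting both directions together.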

How the data were processed

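Each value is a log2 ratio of the 2 channels of a spot, as deposited by the authors. Per the submitters' processing notes limma was used, but its version, background correction and normalization are not given in the sources used here. Medians of the arrays were at most 0.014 from 0. No intensities were used here, so dim spots and slides could not be examined. Genes were named from GEO's platform annotation, possibly old: 1630 spots have 1 symbol, 180 have several and 30638 have none. Spot pairs were inferred from the print layout, and the spots of a clone were averaged.

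Within each replicate the loop of 4 root arrays was solved by least squares for the 4 lines. The mean of the diploids minus 1x then uses the 4 arrays of diploids with 1x alone, while the 4x arrays add to the spread and to single-line estimates. lmFit and eBayes of limma 3.58.1 (R 4.3.3) were run with line as factor and replicate as block, which leaves 3 residual degrees of freedom. Since all ratios lie within a replicate, the block is built into the data, and no label ties replicate numbers to plants. P-values therefore measure the spread between RNA samples, and each 1x RNA entered both diploid arrays of its replicate. Benjamini-Hochberg adjusted p under 0.05 over all 8245 clones was the threshold. The tissue difference pooled the spread of both fits over 5121 clones. The fit was tested on simulated data.

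The spots of a pair correlated at 0.92 to 0.95 on the 4 arrays. The spot standard deviation was 0.55 to 0.61 there, against 0.22 to 0.25 on the root arrays of 4x with a diploid. The median standard error was 0.070 for the mean of the diploids minus 1x. The gene lists and the comparisons were chosen with earlier results of these data known. Named were all listed genes with a root value (the clone with the smallest p and the range of the others), the 12 largest rises and 12 largest falls of other single-symbol genes of one sign on all 4 arrays, the 3 genes with the smallest p for 2xR5 minus 2xR3, and the 5 largest tissue differences in each direction. Tuber storage genes were listed too, and 0 clones carried such a symbol. Alternatives changed the array scaling, the block, the arrays fitted, the shrinkage, the missing value rule, the spots, the tissues fitted together, the averaging of clones and the replicates.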

Additional observations from a re-analysis of the deposited data

Results flagged for a closer look

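For 25 named clones the change between the diploids and 1x differed between root tips and leaf (limma, adjusted p under 0.05). No explanation was tested. Over all clones with an estimate in both tissues, 1221 of 5121 (23.8%) passed. Some of the 25 were named for the size of this very difference, and others for a large root tip change. Their passing is thus partly fixed by the choice of clones, and no conclusion is drawn from their count. The difference, root tips minus leaf on the log2 scale, was 3.23 for LOC102577927, 2.66 for LOC102586657 and 2.29 for LOC102577779. It was 1.30 for CYCD3.3, which was higher in root tip diploids and lower in leaf diploids. It was 1.26 for LOC102605260, whose root tip value of 0.82 did not pass and whose difference was lost without replicate 1, 2 or 4, at 1.43, 1.07 and 0.62.

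Further positive differences were 1.14 for LOC102606273, 0.99 for the higher clone of LOC102587499, 0.81 for MIP2, 0.66 for SHKA, 0.53 for IAA2, 0.49 for LOC102586069 and 0.33 for IAA3. In each of these the root tip rise passed and was the larger one.

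The largest negative difference was -2.45 for ADH1. It was -0.85 for LOC102577429, -0.76 for GBSS and -0.65 for R1, which were lower in root tip diploids and higher in leaf diploids. The other clones of GBSS and R1 passed in neither tissue. RGGA gave -0.60, LOC102584296 gave -0.57 and LOC102587142 gave -0.42, with falls that passed in root tips and not in leaf. The same held for 2 of the 3 clones of LOC102577790, which gave -0.82 and -0.67. Its other clone had -0.14 in root tips and a difference of -0.19, and neither passed. AMYA1 gave -0.63, PK gave -0.44 and ERS gave -0.42, with a rise that passed in leaf and no passed change in root tips. LOC102577499 rose in both tissues, by 0.39 in root tips and 1.10 in leaf, a difference of -0.71 that was lost without replicate 2 or 5, at -0.72 and -0.54. The difference of LOC102577429 was lost without replicate 1, at -0.77.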

How the results depend on the processing

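Every array was scaled to a common spread. The mean of the diploids minus 1x then had 712 passed clones, 452 higher and 260 lower, with 91 higher and 5 lower at 2-fold or more. 2xR3 minus 1x had 262, 2xR5 minus 1x had 165 and the tissue difference had 226. This scaling shrinks the arrays with 1x relative to the others, and the loops then closed less well (standard deviation of the loop sum over 4 of 0.070 and 0.077 with scaling, against 0.053 and 0.061 as deposited). Of 47 named calls 27 were lost and none turned. A fit without replicate 4 or 5 left 1 replicate in root tips. For a clone with no leaf estimate its spread then came from other clones alone. Without replicate 4 or 5, with the spread taken from leaf, the mean of the diploids minus 1x had 1615 to 2450 passed clones, 1063 to 1365 higher and 552 to 1085 lower, with 15 to 41 lower at 2-fold or more. The range was 1273 to 1867 for 2xR3 minus 1x, 1107 to 1769 for 2xR5 minus 1x and 1 to 19 for 2xR5 minus 2xR3, and leaving out any of the 5 replicates gave 421 to 1232 for the tissue difference. Fitting only the 4 arrays of diploids with 1x gave 3897 for the mean and 1678 for 2xR5 minus 1x, and lost the calls of BCAT2, KST1, POTLX-3 and VPE2, while PK and PSBR came to pass. One fit of both tissues gave 2 for 2xR5 minus 2xR3. The fit with no replicate block gave 4616 for the mean and 0 for 2xR5 minus 2xR3, and no named root tip call was lost with it or with robust shrinkage, which lost the tissue difference of LOC102605260 (1.26). Averaging the clones of a gene turned 3 named clones, to 0.10 for DHAR, 0.46 for LOC102587499 and 0.14 for LOC102593187, and 6 other calls did not pass after averaging. The 75% missing value rule, either spot alone and the fit of both tissues each lost 2 named calls. Beyond the fewer arrays or replicates in some of these fits, the cause of a changed call was not tested.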

Other observations

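Genes outside the lists whose symbols name a known protein were looked at after their values were seen. Of 75 measured genes with a symbol other than a LOC number, listed or not, 40 had a passed clone. Only some are given here, and no theme is drawn from them. All 3 clones of SRE1A rose, at 0.40 to 0.43, and both clones of CBL fell, at -0.29 and -0.22. PDHE1-A, of the pyruvate dehydrogenase that feeds pyruvate to respiration, and LPD2, a lipoamide dehydrogenase, had small rises that passed, at 0.23 for one of the 2 clones of PDHE1-A and 0.20 for LPD2 (limma, adjusted p = 0.0284 and 0.0312). The other PDHE1-A clone had 0.06 and did not pass. UCP, an uncoupling protein of mitochondria, had 0.22 in one clone that passed and 0.19 in another that did not (limma, adjusted p = 0.0471 and 0.0793). GPI, glucose-phosphate isomerase, had 0.01 and -0.02 and did not pass. RANGAP1, a protein of nuclear transport, had -0.20 and passed, while RANGAP2 had -0.02 and did not (limma, adjusted p = 0.0261 and 0.894).

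Against the diploids, the tetraploid had values between -0.94 and 0.96, with a median of -0.21, over the 222 clones that rose 2-fold or more at the first doubling. These values share the diploid RNA with the choice of the clones.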
